A study of Homo sapiens with 2 samples.

Results

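The genes described here encode subunits of the replicative DNA polymerases: POLA1, POLA2, PRIM1 and PRIM2 of polymerase alpha-primase, POLD1, POLD2, POLD3 and POLD4 of polymerase delta, and POLE and POLE2 of polymerase epsilon. They were taken by symbol, all 10 were listed, and the table held 18141 distinct symbols. U2OS, an established human osteosarcoma line, was grown without synchronisation in 0.3 µM aphidicolin for 18 h, and its polyadenylated RNA was sequenced in 2 libraries. Both are replicates of the same treated group, and whether each had its own culture is not labelled. A difference between them may thus be technical, and the p-values printed here set it against counting error alone. Untreated cells were not analysed here, and the values are levels under the drug, not responses to it.

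Polymerase alpha-primase starts every new DNA strand: its primase lays down a short RNA, which its DNA polymerase extends. Polymerase delta then synthesises most of the lagging strand and polymerase epsilon most of the leading strand. Aphidicolin occupies the active site of the catalytic subunits of these polymerases, which belong to the B family, and competes with an incoming nucleotide. At low doses it slows forks without stopping the cell cycle, and DNA at common fragile sites is then finished in mitosis.

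Polymerase genes are known as targets of the E2F factors, which switch on S phase genes, so their promoters were searched for E2F letters. RefSeq promoters on GRCh38.p14, from 250 bases before to 50 after the annotated start, were on hand for 9 of the 10 genes, as 12 promoters, and POLD3 was not among them. The letters TTTCCCGC, TTTGGCGC, TTTCGCGC or TTTGCCGC, on either strand, were found for 4 of the 9 genes, in 4 of the 12 promoters. The share over all 35116 promoters was 3.31%. The 4 genes are POLA1, POLA2, POLE and POLE2. The stretches with those letters are shown in capitals, 5′ to 3′ on the gene's strand.
POLA1 (chrX:24693741-24693800, plus strand): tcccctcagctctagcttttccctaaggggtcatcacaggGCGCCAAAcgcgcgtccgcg
POLA2 (chr11:65261869-65261928, plus strand): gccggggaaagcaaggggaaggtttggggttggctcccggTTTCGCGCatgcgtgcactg
POLE (chr12:132687343-132687400, minus strand): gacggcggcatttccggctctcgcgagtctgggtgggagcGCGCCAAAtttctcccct
POLE2 (chr14:49688212-49688259, minus strand): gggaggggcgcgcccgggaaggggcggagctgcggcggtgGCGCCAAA
The same 8 letters, GCGCCAAA, stood in POLA1, POLE and POLE2. Relative to the RefSeq starts, they lie directly at the start of POLE2, within 20 bases of the start of POLE, and farther upstream in POLA1.

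The promoters of POLD1, POLD2, POLD4, PRIM1 and PRIM2 did not hold these E2F letters. The promoters of POLD2 and POLD4, the highest and lowest genes with a single row by RPKM, are shown for contrast, with the CCAAT box (CCAAT) and the GC box (GGGCGG) of either strand in capitals. Each window covers the 120 bases before a RefSeq start.
POLD2 (chr7:44123549-44123668, minus strand): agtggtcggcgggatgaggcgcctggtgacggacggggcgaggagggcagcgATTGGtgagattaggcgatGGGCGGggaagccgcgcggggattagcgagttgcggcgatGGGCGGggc
POLD4 (chr11:67353597-67353716, minus strand): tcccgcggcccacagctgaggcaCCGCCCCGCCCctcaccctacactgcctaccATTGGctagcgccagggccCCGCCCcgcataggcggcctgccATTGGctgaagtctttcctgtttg
Both windows held both letter groups. In full promoters, CCAAT was found for 5 of the 9 genes, in 6 of the 12 promoters, against 34.6% of all promoters. GGGCGG was found for 6 of 9 genes, in 7 of 12 promoters, against 45%. The NRF1 motif was found for 3 of 9 genes, POLA1, POLA2 and PRIM1, in 3 of 12 promoters, against 5.78% of all promoters. TATAAA was found for 0 of 9 genes, against 11.5% of all promoters. These are matches of letters, and no binding was measured.

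Most of the subunit genes were well expressed. Their levels are in RPKM, reads divided by exonic length and by the library's total. Genes are thus compared per annotated exonic base, and much of their order depended on the length used, as given below. All 9 genes with a single row reached 1 RPKM in both libraries, a level that 66.7% of the 17912 entries of the table reached. Their median was 16.6 RPKM, against 3.53 RPKM over all entries, and 8 of the 9 lay above that overall median. POLA2, whose symbol had several rows, is not counted here. Its higher pair of values, described below, averaged 3.29 RPKM, under that overall median. In bulk RNA, fewer expressing cells and less RNA per cell cannot be told apart.

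**Figure D1:**
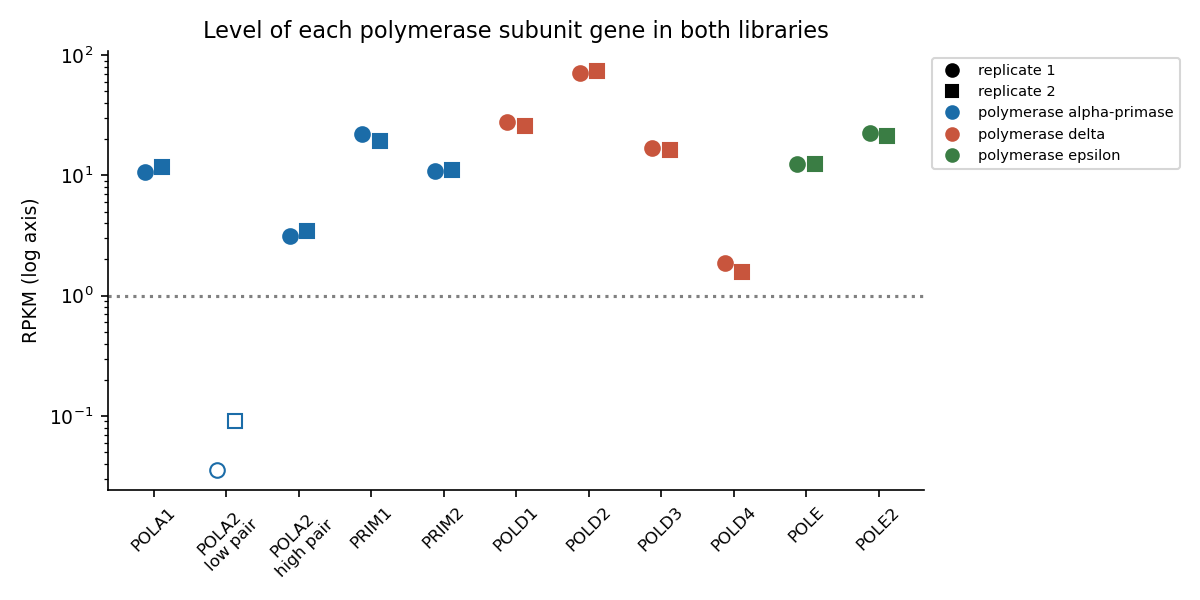
RPKM on a log axis for each subunit gene, with circles for replicate 1, squares for replicate 2 and a dotted line at 1 RPKM; colours mark the complex, and POLA2 has 2 pairs of values because its symbol had several rows. POLD2 stands highest in both libraries, and POLD4 is lowest apart from the open symbols, which mark the low pair of POLA2.

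Polymerase alpha-primase had its primase catalytic subunit highest. PRIM1, which synthesises the RNA primer, had 22.1 RPKM in replicate 1 and 19.3 in replicate 2 (20.7 ± 2.0, SD, n = 2). POLA1, the DNA polymerase that extends the primer, had 10.7 and 11.7 RPKM (11.2 ± 0.66). PRIM2, the large primase subunit that carries an iron-sulphur cluster, had 10.8 and 11.0 RPKM (10.9 ± 0.15). Both PRIM1 values were above all values of POLA1 and PRIM2, while POLA1 and PRIM2 overlapped each other. PRIM1 was 2.06 and 1.65 times the level of POLA1, and PRIM2 was 1.01 and 0.944 times that level.

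POLA2, the regulatory B subunit that tethers the complex, was recorded in 4 rows, which pair 2 values of replicate 1 with 2 values of replicate 2 in every combination. Only the high pair and the low pair correspond to small whole read numbers. The high pair, 3.16 RPKM in replicate 1 and 3.42 in replicate 2 (3.29 ± 0.18), stands for 233 and 248 reads over an exonic length of 5568 bases. The low pair, 0.0355 and 0.0902 RPKM, stands for 2 and 5 reads over 4256 bases. The mixed pairs would need exonic lengths of 185136 and 740544 bases.

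The length of 4256 bases equals the exonic length of AP000944.2 in GENCODE release 29, a gene on the same strand of chromosome 11 from 65261928 to 65326543 that runs through POLA2 (65261762 to 65305589) into the next gene. It shares 2012 of the 5726 exonic bases of POLA2 (35.1%), and 3898 of its own 4256 exonic bases lie in other genes. The read counter named by the submitters leaves out, by default, reads that fall in more than 1 gene, but the setting used is not given in the sources used here. At the high pair, POLA2 had 0.295 and 0.293 times the level of POLA1. Per kilobase of unshared exon, POLA2 had 62.7 and 66.8 reads, against 149 and 159 reads for POLA1. POLA2 was thus lower than POLA1 also when the shared bases were left out of its length, and any other part of the overlap in its level was not tested.

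By RPKM, polymerase delta held both the highest and the lowest gene of the set; with coding length in place of exonic length, POLA2 by its high pair was lowest. POLD2, the scaffold subunit that joins the catalytic to the accessory subunits, had 70.8 RPKM in replicate 1 and 74.4 in replicate 2 (72.6 ± 2.5). POLD1, the catalytic subunit with its proofreading exonuclease, had 27.8 and 26.0 RPKM (26.9 ± 1.3). POLD3, which binds the sliding clamp and is known to be needed for DNA synthesis in mitosis after aphidicolin, had 16.9 and 16.3 RPKM (16.6 ± 0.39). These 3 genes were separate from each other in both libraries. POLD2 was 2.55 and 2.86 times the level of POLD1, and POLD3 was 0.608 and 0.628 times that level.

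POLD4, the smallest delta subunit, whose protein is known to be degraded after replication stress, had 1.86 RPKM in replicate 1 and 1.58 in replicate 2 (1.72 ± 0.19). This rests on 75 and 63 reads. The exact Poisson 95% intervals, which cover counting error only, ran from 1.46 to 2.33 and from 1.22 to 2.03 RPKM. POLD4 was 0.0668 and 0.0610 times the level of POLD1, the lowest ratio of any subunit to its catalytic subunit here. POLD2 was 42.2 times as high as POLD4 by the mean RPKM, a log2 ratio of 5.40, which came to 3.44 with coding length.

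In polymerase epsilon the B subunit was higher than the catalytic subunit. POLE, the catalytic subunit, had 12.4 RPKM in each library (12.4 ± 0.034), from 2761 and 2707 reads. POLE2, its B subunit, had 22.6 RPKM in replicate 1 and 21.3 in replicate 2 (21.9 ± 0.94), which is 1.82 and 1.72 times the level of POLE. The small histone-fold subunits of the same complex, which are not in the set, spread more widely: POLE3 stood at 50.9 ± 2.7 RPKM and POLE4 at 5.74 ± 0.90. POLE3 was 3.94 and 4.27 times the level of POLE, and POLE4 was 0.410 and 0.515 times that level.

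**Figure D2:**
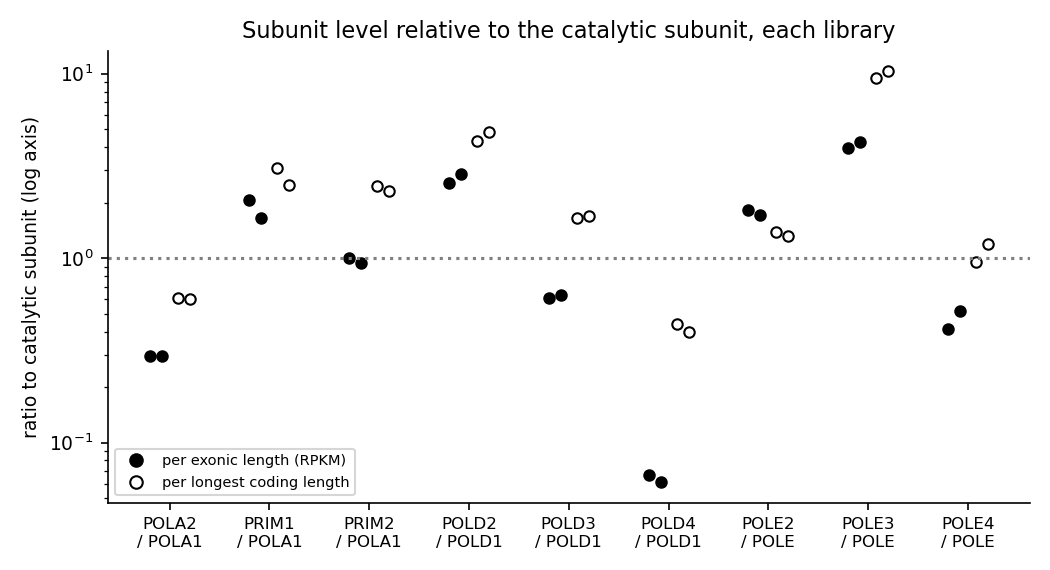
Level of each accessory subunit divided by the catalytic subunit of its complex, on a log axis, with a pair of points for the libraries; filled points use exonic length (RPKM) and open points the longest coding length. POLA2 uses its high pair. POLD3 lies below 1 with exonic length (0.608 and 0.628) and above 1 with coding length (1.65 and 1.70).

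The order of the subunit genes by mean RPKM was POLD2, POLD1, POLE2, PRIM1, POLD3, POLE, POLA1, PRIM2, POLA2 by its high pair, and POLD4. Neighbours in this order had library values that did not overlap, except POLE2 with PRIM1 and POLA1 with PRIM2. The catalytic DNA polymerase subunits fell in the order POLD1, POLE and POLA1, with means of 26.9, 12.4 and 11.2 RPKM. The gap between POLE and POLA1 was small, at 1.11 times, and their library values did not overlap. Much of the order across complexes depended on the length used. Per kilobase of longest coding sequence, it was POLD2, POLD3, PRIM1, POLE2, PRIM2, POLD1, POLE, POLA1, POLD4 and POLA2 by its high pair. POLE2 then overlapped PRIM2, PRIM2 overlapped POLD1, and POLA1 overlapped POLD4. POLD2 stayed highest, and POLD1, POLE and POLA1 kept their order among themselves.

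Placed among all entries by the share with a lower mean, the genes with a single row ran from 38.8% for POLD4 to 97.6% for POLD2, with a median of 82.4%. POLD1 had 89.9% of entries below it, POLE2 87.1%, PRIM1 86.2% and POLD3 82.4%. POLE followed with 76.6%, POLA1 with 74.3% and PRIM2 with 73.7%. The high pair of POLA2 lay near the middle of the table, with 48.6% of entries below it. The entries next to POLD2 were ACLY and CTSL just above it, at 72.6 RPKM each, and SAE1 and KLHDC3 just below it, at 72.3 and 71.9 RPKM. Next to POLD4 stood CEP85L and PMS2P3 above and KLC1 and LMO1 below, all at 1.72 RPKM. These are neighbours in level alone, since replicates of a single group give no pattern across conditions.

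**Figure D3:**
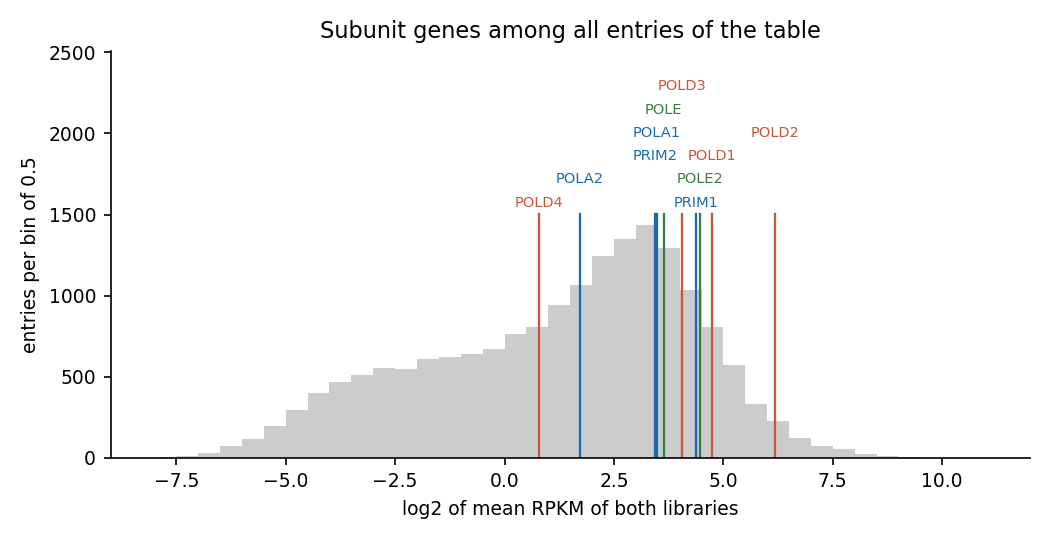
Histogram of log2 mean RPKM over all 17912 entries, in bins of 0.5, with a vertical line for each subunit gene coloured by complex (blue alpha-primase, red delta, green epsilon). POLA1 and PRIM2 lie in the tallest bin, POLD4 (1.72 RPKM) and POLA2 by its high pair (3.29 RPKM) lie left of it, and the other 6 genes lie right of it.

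The subunit genes differ in how much of their annotated exon is coding, and this bears on RPKM, which divides by all exonic bases. In GENCODE release 29 the exonic length was 1.44 times the longest coding length for POLA1, 1.45 times for POLD1 and 1.87 times for POLE2. It was 3.94 times for POLD3 and 9.50 times for POLD4, whose 3049 exonic bases hold a longest coding sequence of 321 bases. The exonic length behind the deposited values matched GENCODE release 29 closely for most of the genes, from 97.2% to 105% of it, but it was 117% for PRIM1 and 121% for PRIM2. PRIM1, POLA2 and POLD4 had over 10% of their exonic bases shared with another gene (21.6%, 35.1% and 21.3%), as did 19.2% of all matched entries. POLD1 (8.64%) and POLD3 (2.23%) shared less, and the other 5 genes shared none.

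Divided by the longest coding length instead, the reads placed some subunits differently. PRIM2 was then 2.47 and 2.32 times the level of POLA1, and POLD3 was 1.65 and 1.70 times that of POLD1. POLD4 came to 0.438 and 0.400 times POLD1, still lower in both libraries, and POLA2 to 0.607 and 0.603 times POLA1. PRIM1 at 3.09 and 2.48 times POLA1, POLD2 at 4.29 and 4.82 times POLD1, and POLE2 at 1.39 and 1.31 times POLE kept their side. POLE4, at 0.955 and 1.20 times POLE, lay on both sides of equal. Reads outside the longest coding sequence are counted in this division while their bases are not, so genes with many such reads are raised by it. RPKM in turn divides by all annotated exonic bases, so bases that gave no reads lower it. For POLD4, the annotation held 12 transcripts, merged into 2 exons of 3049 bases in total, against a coding length of 321 bases. For POLE it held 22 transcripts, with 16609 exonic bases against a coding length of 6858. Which transcripts gave the reads, and how far unused bases lowered the RPKM of POLD4 or POLE, was not tested.

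**Figure D4:**
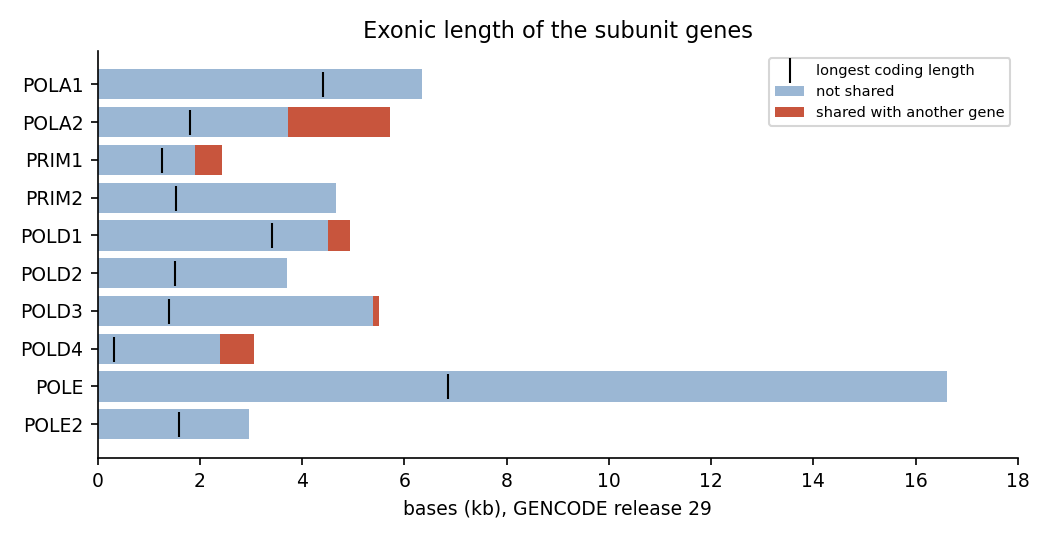
Exonic bases in kilobases of each subunit gene in GENCODE release 29, split into bases not shared (blue) and shared with another gene (red); the black tick marks the longest coding length. POLE has the longest exon set, POLA2 shares 35.1% of its bases, and POLD4 has the shortest coding length (321 bases) in 3049 exonic bases.

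No subunit gene with a single row passed the test between the libraries. Across the 9 genes with a single row, the SD between the libraries was between 0.278% of the mean for POLE and 11.2% for POLD4, with a median of 4.29%. Over all entries at 1 RPKM that median was 3.48%. An exact binomial test of recovered reads, 2-sided with Benjamini-Hochberg adjustment over 11944 entries, called 0 of the 9 genes different between the libraries and 1.68% of the entries tested (201). With the spread beyond counting added to the error, an alternative to that test called 9 entries and again 0 of the 9 genes. The exact test sets 1 library against the other and tests no condition. At an unadjusted p under 0.05 the exact test counted 2 of the 9, PRIM1 and POLD2, and 11.9% of all entries tested.

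PRIM1 had 835 reads in replicate 1 against 717 in the other library. Its log2 ratio, taken as replicate 2 over 1, was -0.19 with a counting SE of 0.073 (exact binomial test, adjusted p = 0.206). POLD2 had 3460 and 3578 reads and a log2 ratio of 0.08 with a counting SE of 0.034 (exact binomial test, adjusted p = 0.320). POLD4 had the lowest log2 ratio, -0.22, with a counting SE of 0.25 at its few reads. POLA1, PRIM2, POLD2 and POLE were higher in replicate 2 and the other 5 lower, though the log2 ratio of POLE, 0.00061, turned to -0.0057 when library totals alone set the scale.

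**Figure D5:**
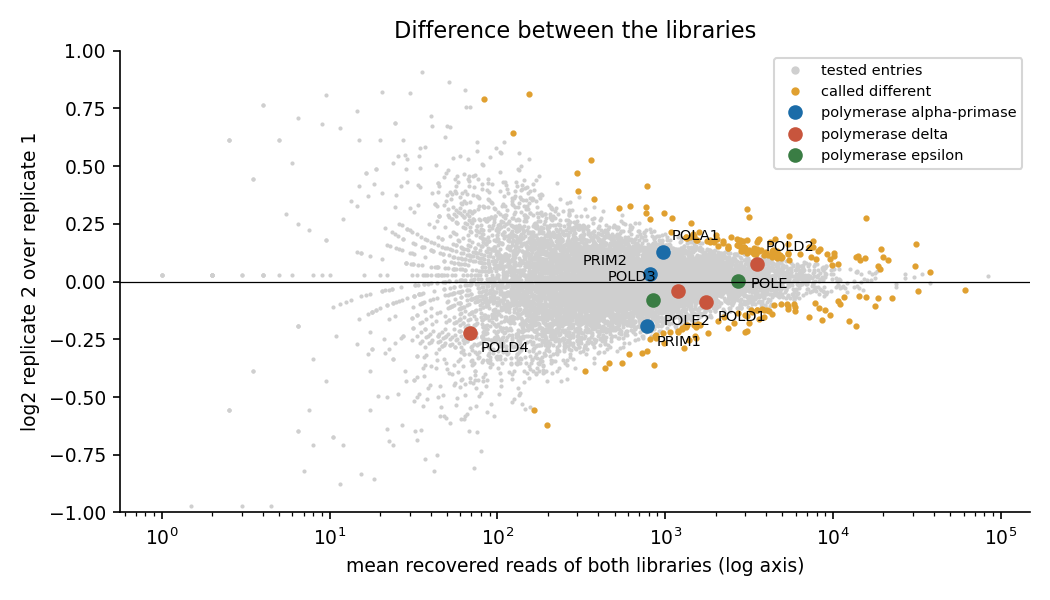
Log2 ratio of replicate 2 over replicate 1 against mean recovered reads (log axis) for entries at 1 RPKM, with entries called different in orange and the subunit genes with a single row coloured by complex; 22 entries lie outside the plotted range. The subunit genes lie between -0.22 and 0.13, and none is called different.

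Other polymerases and partners give the scale for these levels. Of 15 other genes of DNA polymerases and the primase-polymerase, 14 were listed and 13 reached 1 RPKM in both libraries, with a median of 5.68 RPKM over those listed. MAD2L2, an accessory subunit of polymerase zeta, led them at 33.0 ± 0.25 RPKM, followed by the translesion polymerase gene POLH at 23.3 ± 0.074 and the end-joining polymerase gene POLQ at 11.8 ± 0.097. POLN was below the level at 0.301 ± 0.024, and DNTT was not listed. REV3L, the B family catalytic subunit of polymerase zeta, named after its value was seen, had 4.77 RPKM in replicate 1 and 5.03 in replicate 2, below all values of POLD1, POLE and POLA1.

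Partners of the polymerases at the fork were higher as a list, with 20 of 21 genes listed, all 20 at 1 RPKM or more, and a median of 28.0 RPKM. PCNA, the sliding clamp that holds polymerase delta on DNA, led them at 216 ± 5.3 RPKM. POLDIP2, named for its interaction with polymerase delta, stood at 57.2 ± 2.2 and CDC45, part of the replicative helicase, at 42.8 ± 0.17. TEN1, of the complex that recruits polymerase alpha to telomeres, was not listed. These lists were compared with the subunit genes by their medians and counts, with no test.

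All 6 mesenchymal and osteoblast markers chosen for the labelled line reached 1 RPKM in both libraries, with summed levels of 877 and 899 RPKM. SPARC and VIM led them, while RUNX2 stood at 8.55 ± 0.18 and ALPL at 2.23 ± 0.42. Summed levels of the haematopoietic markers were 1.38 and 1.26 RPKM, of the epithelial ones 3.58 and 3.40, of the endothelial ones 0.860 and 0.739 and of the hepatocyte ones 0.106 and 0.378. CD3D and EPCAM were the members of those lists at 1 RPKM or more, at 1.11 and 2.28 RPKM. KRT20 and ALB were not listed. The marker lists differ in length, so their sums are no like-for-like comparison. The library totals recovered from the RPKM were 13227805 reads for replicate 1 and 13020149 for replicate 2. The entries held 98.2% and 98.3% of these totals, which are not labelled counts of sequenced reads. The subunit genes with a single row held from 63 to 3578 reads per library.

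In the genome the subunit genes are scattered, with 7 chromosomes holding the 10 genes. PRIM2 (chromosome 6, 57314805 to 57646849) spans 332 kb and POLA1 (chromosome X, 24693919 to 24996986) spans 303 kb, the widest of the set. POLD4 (chromosome 11, 67350777 to 67356972) spans 6.20 kb and POLD2 (chromosome 7, 44114681 to 44124358) spans 9.68 kb, the narrowest. The widest genes, PRIM2 and POLA1, had nearly equal RPKM, though with coding length PRIM2 was 2.47 and 2.32 times POLA1. The narrowest, POLD4 and POLD2, had the lowest and highest RPKM of the genes with a single row. POLD3 (chromosome 11, 74493851 to 74669117), POLE (chromosome 12, 132623753 to 132687365), PRIM1 (chromosome 12, 56731596 to 56752373), POLD1 (chromosome 19, 50384204 to 50418016) and POLE2 (chromosome 14, 49643555 to 49688422) lie between these spans. All these coordinates are those of GENCODE release 29 on GRCh38. The RefSeq promoter windows printed above for POLA2, POLE2, POLD2 and POLD4 lie inside the GENCODE spans of their genes.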

How the data were processed

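The authors deposited RPKM per library in 1 table, per the file headers. The submitters' processing notes name Trim Galore, HISAT2 and featureCounts with hg38 and GRCh38.p13. Their versions, the annotation, any use of strand and filters: not given in the sources used here. Symbols with several rows (58) stayed out of the fits, and values shared by several symbols were taken once, which left 17912 entries. Whole reads were recovered: the 1019 genes with equal reads gave the library totals, and the remaining whole factor was set by the exonic length in GENCODE release 29. Ratios were whole within a relative tolerance of 2e-13 for 100% of entries, a check that the mixed POLA2 pairs passed too. The recovered exonic length was within 10% of GENCODE release 29 for 91.0% of matched symbols and equal to it for 43.9%. Since that length set the factor, this is no independent check of the reads. Of the tested entries, 128 had no GENCODE match and took the smallest possible reads. Libraries were compared by an exact binomial test with trimmed mean of M values scaling (0.9957 for replicate 2), Benjamini-Hochberg adjusted at 0.05. Steps were tested on simulated data. Named genes were the members, 3 lists of related genes by their 3 highest and those below 1 RPKM, and neighbours in level. Members, lists and motifs were chosen with earlier results of these data known. Intervals cover counting error only, and reads were not counted as molecules. Python 3.11.15, numpy 2.4.6, scipy 1.17.1, pandas 2.3.3 and matplotlib 3.10.9 were used.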

Additional observations from a re-analysis of the deposited data

How the results depend on the processing

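The count of subunit genes at the level (9) stayed within 1.5 times at 0.5 RPKM, at 1 CPM, at 5 RPKM (8, without POLD4) and without either replicate, and 0 of the 9 differed between the libraries under each scaling, filter, threshold and error model run. The median share of entries below the genes (82.4%) was 78.8% in CPM and 73.6% among entries at 1 RPKM. With coding length it was 70.7%, taken only over entries that have a coding length. The log2 ratio of PRIM1 over PRIM2 (0.92) was 0.21 with coding length, 1.22 with unshared exonic bases and -0.065 in CPM. That of POLD2 over POLD4 (5.40) was 4.76 on log2(RPKM + 1), 3.44 with coding length, 5.05 with unshared bases and 5.68 in CPM. That of POLE2 over POLE (0.82) was 0.43 with coding length and -1.69 in CPM. CPM does not divide by length, so by construction it raises long genes such as POLE. The test between libraries called 201 entries, against 108 with a threshold of 0.01 and 9 with the spread beyond counting (2.71%) added to the error. The log2 ratio of POLE between the libraries was -0.0057 with library totals alone. For the other changes the cause was not tested. CPM between genes, coding length and unshared bases were chosen after seeing the data. Coding length from RefSeq proteins was not run because that table was not used here. No paired analysis was possible because all samples form 1 group. Depth limits POLD4 and the low pair of POLA2.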
